A study of Mus musculus with 32 samples.

Results

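FGF21 and glucagon signalling was followed here through 7 genes: the hormone gene Fgf21, its co-receptor Klb, the FGF receptors Fgfr1, Fgfr2 and Fgfr4, the glucagon receptor Gcgr, and Ppara, a nuclear receptor that drives Fgf21 transcription. They were chosen by name, as the ligand, receptors and hepatic regulator of the pathway, and all 7 were found among the 47643 gene IDs of the count table. RNA came from liver and epididymal white adipose tissue (eWAT) of male C57BL/6 mice (C57BL/6J in the study's methods) that were 10 weeks old when the treatment began. The mice drank water with corticosterone (cort) or its ethanol vehicle (veh) for 7 days, and ate a normal-protein diet (NPD, 20% of calories from whey protein) or a high-protein diet (HPD, 60%, with less carbohydrate). Tissue was taken after a short fast. Each of the 8 groups of tissue, drink and diet had 4 libraries, prepared with QuantSeq, which reads the 3′ ends of transcripts. The sources do not say that each library was a separate mouse, so p-values measure the spread between these samples.

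FGF21 is a hormone that the liver releases under fasting, amino acid shortage and other metabolic stress. It acts on cells that carry β-Klotho, the protein of Klb, together with an FGF receptor, chiefly FGFR1 in fat. FGFR4 with β-Klotho is the hepatic receptor for the gut hormone FGF15, which restrains bile acid synthesis. Glucagon acts on hepatocytes through GCGR and cyclic AMP to raise glucose output and amino acid breakdown. PPARα switches on fatty acid oxidation and ketone body synthesis. The study asked whether more dietary protein would lessen muscle loss under oral corticosterone, and FGF21 and glucagon are hormones that respond to dietary protein.

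Library totals ran from 8933307 to 18057936 counts. The hepatocyte marker sum (6 genes, Alb among them) was 80178 to 261699 CPM (counts scaled to library size) in the 15 liver libraries that were used and at most 89.6 in eWAT, while the white adipocyte sum (6 genes, Adipoq among them) was 14198 to 37402 CPM in eWAT. Liver Veh HPD replicate 4 stood apart (median correlation with the other liver libraries 0.897) and was left out, so the fits use 15 liver libraries and 16 eWAT libraries. eWAT Cort HPD replicate 4 also stood apart (0.892) and held 6728 CPM of 6 epididymis and testis markers, against at most 11.03 elsewhere. It was kept, and changes without it are given for Fgfr1, Fgfr2 and Klb alone. For other eWAT genes its removal is not shown by name. A member is called changed at an adjusted p under 0.05 in edgeR's quasi-likelihood test with Benjamini-Hochberg adjustment over all genes tested.

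Fgf21 (ENSMUSG00000030827) lies on the minus strand at chr7:45613886-45615490 of GRCm38. The 250 bases before its start are shown because they hold the only matches found in any member's promoter. They are at chr7:45615491-45615740, from RefSeq's GRCm38.p6, read 5′ to 3′ on the gene's strand, and capitals mark the matches.

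Fgf21: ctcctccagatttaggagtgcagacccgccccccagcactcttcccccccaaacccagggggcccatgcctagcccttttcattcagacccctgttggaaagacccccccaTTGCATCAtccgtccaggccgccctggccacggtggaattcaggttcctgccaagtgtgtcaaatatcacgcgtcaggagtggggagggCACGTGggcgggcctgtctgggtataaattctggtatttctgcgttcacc

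The first match, 139 to 132 bases before the start, is the composite element of ATF4 and C/EBP factors, searched as TGATGCAA on both strands. ATF4 is the transcription factor of the integrated stress response. Of 32851 promoters of this length, 0.791% hold it. The second, 50 to 45 bases before the start, is the E-box CACGTG, found in 6.02% of promoters and bound by factors such as ChREBP. The same window was searched in the 6 members with a promoter sequence (Fgfr1 had none) for the cyclic AMP response element TGACGTCA, the nuclear receptor core AGGTCA and the glucocorticoid receptor core AGAACA, which occur in 1.55%, 14.0% and 16.1% of all promoters. None of the 6 held these letters, nor therefore the longer PPAR direct repeat and palindromic glucocorticoid response element that contain them. A match is a match of letters and does not show binding.

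The other members are Klb at chr5:65348314-65384007, Fgfr1 at chr8:25513654-25575718, Fgfr2 at chr7:130162451-133123350, Fgfr4 at chr13:55152640-55168759, Gcgr at chr11:120530699-120538986 and Ppara at chr15:85734983-85802819. All 7 are protein-coding. Fgfr1 shares 164 exon bases with an antisense gene, Gm16159, and the long Fgfr2 model shares 314 with Ctbp2 on the same strand, so counts in those stretches could belong to either gene.

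The tissues split the pathway, with the ligand and the glucagon receptor in liver and the classical FGF21 receptor in fat. All 7 members were called between liver and eWAT of veh-treated mice on the NPD, in a comparison that called 62.7% of all genes. Fgf21 and Fgfr4 did not pass the filter on low counts in eWAT alone. They entered this comparison only through liver, where they are high. Their calls are thus no support for the split, and only their levels are given. Gcgr was 7.74 ± 0.44 higher in liver on the log2 scale (SE, 4 libraries against 4, adjusted p = 5.27e-15), and Ppara was 4.10 ± 0.42 higher. Fgfr1 was lower in liver, with a log2 difference of -5.14 ± 0.31 (adjusted p = 1.61e-15), and Klb differed by -0.98 ± 0.26 (adjusted p = 0.00137). Fgf21 averaged 3.56 CPM in liver and 0.272 CPM in eWAT. Its 4 eWAT libraries had 0, 11, 4 and 0 counts. For Fgfr4 the eWAT level came from the 14 counts of replicate 2. The other 3 eWAT libraries were at 0, and the group means were 6.73 CPM in liver and 0.261 CPM in eWAT. Fgfr2 was 1.18 ± 0.34 higher in liver (adjusted p = 0.00345), a call that library totals as the only scaling took to 0.17 (adjusted p = 0.667). That scaling moved the median of all genes by -1.02, so Fgfr2 was higher relative to other genes and not in its share of all counts.

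**Figure D1:**
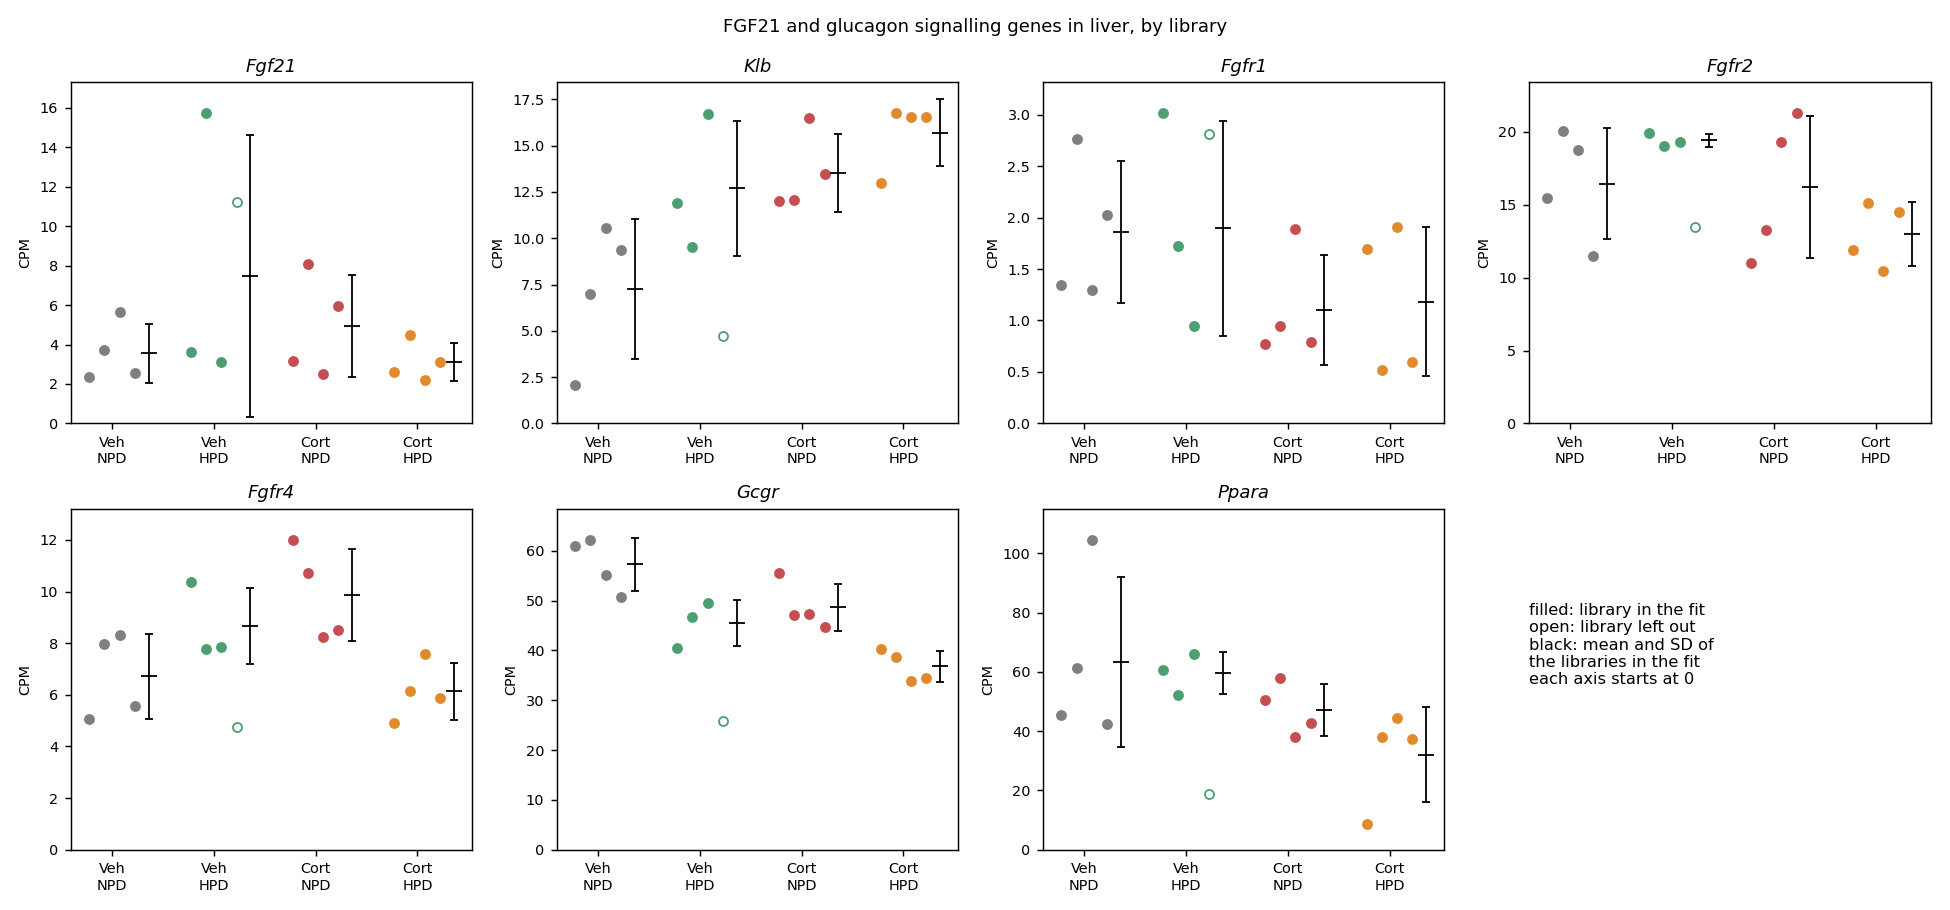
CPM (counts scaled to library size) of the 7 genes in each liver library, by group, with an axis from 0 in each panel. Filled circles are libraries in the fit, the open circle is Veh HPD replicate 4, which was left out, and black bars are the mean and SD of the filled circles. Gcgr runs from 57.3 CPM in Veh NPD to 36.9 in Cort HPD, while the mean of Fgf21 in Veh HPD is lifted by 1 library at 15.7.

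In liver, none of the 7 genes passed the test in any of the 5 comparisons, although several lay close to the threshold. For cort against veh on the NPD the count was 0 of 7, where 12.6% of all genes tested were called. For cort against veh on the HPD it was 0 of 7, against 9.89%. For HPD against NPD it was 0 of 7 in veh-treated mice, against 0.169%, and 0 of 7 in cort-treated mice, against 5.88%. For the interaction of diet and cort it was 0 of 7, against 0.113%. At an unadjusted p under 0.05 the counts in this order were 2, 4, 2, 2 and 2. DESeq2 called 1 member (Klb) for cort on the NPD and 2 (Fgfr4 and Gcgr) for diet in cort-treated mice, and limma voom called Klb for cort on the NPD. Both called 0 in the other comparisons. Some groups do not overlap in the values given below. How many of all genes separate in this way was not counted, so separation alone is not a result about a member. The hepatocyte marker sum moved too, from 80178 to 90229 CPM in Veh HPD to 151711 to 261699 CPM in Cort HPD livers, and its part in the liver values was not tested.

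Fgf21, the ligand, was low in every group and varied more between libraries than between treatments. It stood at 2.37, 3.72, 5.63 and 2.54 CPM in the Veh NPD livers and at 3.63, 15.7 and 3.11 CPM in the Veh HPD livers. Cort NPD livers had 3.16, 8.11, 2.50 and 5.96 CPM, and Cort HPD livers 2.63, 4.48, 2.22 and 3.12 CPM. All 4 groups overlapped, and the counts behind these values were 29 to 182. The log2 change with cort was 0.47 ± 0.52 on the NPD (95% interval -0.65 to 1.59, adjusted p = 0.625) and -1.23 ± 0.55 on the HPD (-2.40 to -0.06, adjusted p = 0.184). The HPD against the NPD gave 1.05 ± 0.55 in veh-treated mice (adjusted p = 0.574) and -0.65 ± 0.52 in cort-treated mice (adjusted p = 0.519). The interaction was -1.70 ± 0.76 (adjusted p = 0.388). Single libraries decided these sizes. Without Veh HPD replicate 2 the change with cort on the HPD was -0.09, the change with diet in veh-treated mice -0.08 and the interaction -0.55. Without Cort NPD replicate 2 the change with cort on the NPD was 0.14 and the change with diet in cort-treated mice -0.31.

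The library with the high Fgf21 was also high in targets of the integrated stress response. Trib3, a pseudokinase that ATF4 induces, was one of the 3 genes most like Fgf21 over the 15 liver libraries (Pearson's r = 0.77 on log2 CPM, a description with no test), after Ada (0.81) and Rap1gap2 (0.77). It stood at 88.0 CPM in Veh HPD replicate 2, against 20.3 and 10.7 CPM in the other Veh HPD livers and 7.03 to 13.6 CPM in the remaining 12. Ddit3, which encodes CHOP, stood at 52.4 CPM there, against 16.9 and 14.0 in the same group and 5.07 to 9.48 elsewhere. Without that library the correlation of Fgf21 with Trib3 was 0.39 over 14 libraries, and that with Ddit3 was 0.26, against 0.71 with it. The library left out of the fits, Veh HPD replicate 4, showed the same combination, at 11.2 CPM of Fgf21, 89.6 of Trib3, 82.5 of Ddit3 and 215 of Atf4. Atf4 itself was 71.96 to 136 CPM in the 15 livers. Its correlation with Fgf21 was 0.21 over them and -0.016 without Veh HPD replicate 2.

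**Figure D2:**
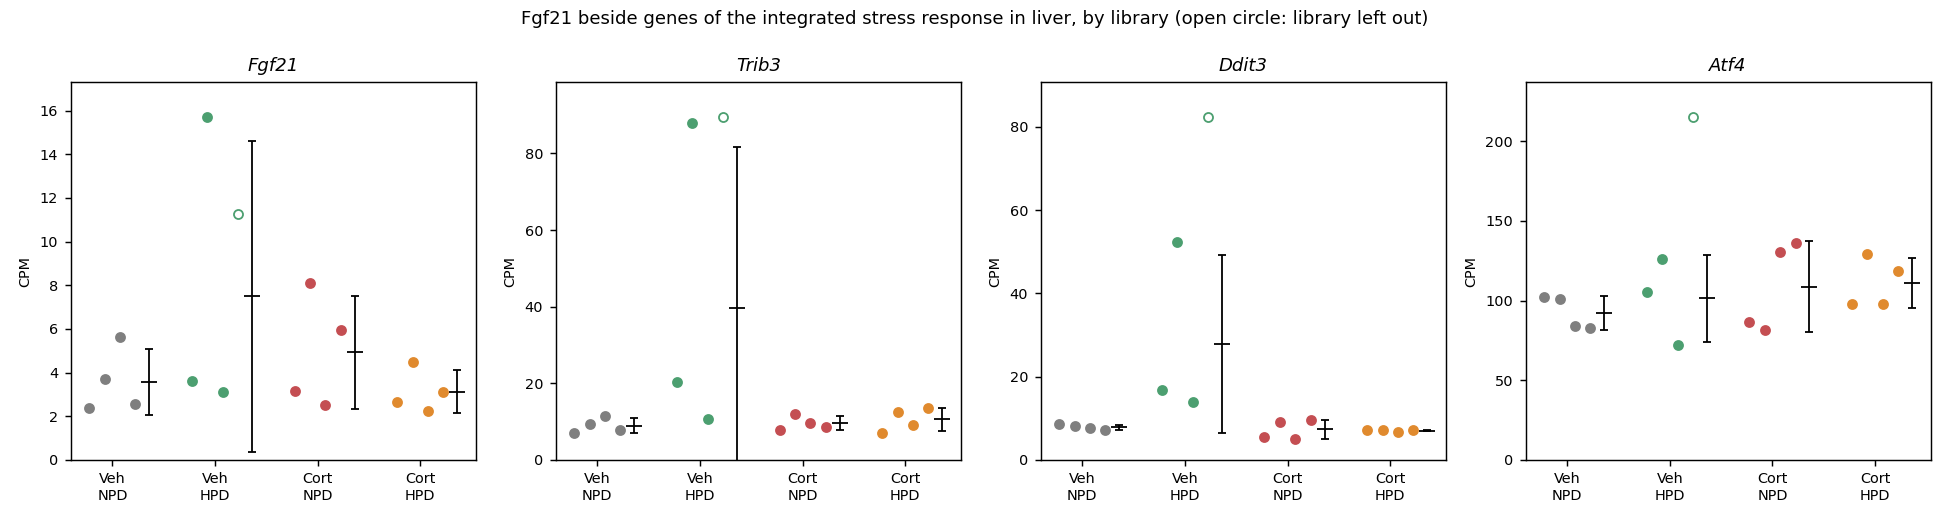
CPM of Fgf21, Trib3, Ddit3 and Atf4 in each liver library, by group, with the mean and SD of the libraries in the fit. Veh HPD replicate 2 is the highest filled circle for Fgf21, Trib3 and Ddit3, and the open circle, the library left out, is high for all 4 genes. The lower SD bar of Trib3 in Veh HPD is cut off at 0.

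Among the 22 genes that regulate Fgf21 transcription, edgeR called 0 with cort on the NPD, beside 12.6% of all genes. There 3 were at an unadjusted p under 0.05, DESeq2 called 1 and limma voom 0. With cort on the HPD 3 fell (13.6%, beside 9.89% of all genes). They were Ddit3 (-1.97 ± 0.35, adjusted p = 0.00172), Trib3 (-1.90 ± 0.55, adjusted p = 0.0479) and Rxra (-0.45 ± 0.14, adjusted p = 0.0412, lost in 7 of 15 fits that left out 1 library), the partner receptor of PPARα. The list's median change was -0.27, and that of all genes -0.004. Ddit3 fell by 1.12 also without Veh HPD replicate 2 (adjusted p = 0.00524), whereas Trib3 was then at -0.54 (adjusted p = 0.273). Ddit3 was also the 1 regulator called for HPD over NPD in veh-treated mice (4.55%, beside 0.169% of all genes). Its change was 1.81 ± 0.35 (adjusted p = 0.0482), at 16.9, 52.4 and 14.0 CPM against 7.10 to 8.54 in Veh NPD. The groups did not overlap, but without replicate 2 the change was 0.97 (adjusted p = 0.152), and the call was lost in 13 of 15 fits that left out 1 library. In cort-treated mice 1 regulator rose and 2 fell on the HPD against the NPD (13.6%, beside 5.88% of all genes). Eif2ak2 rose by 1.34 ± 0.30 (adjusted p = 0.0101). Rxra (-0.46 ± 0.13, adjusted p = 0.0356) and Creb3l3 (-0.56 ± 0.17, adjusted p = 0.0498) fell.

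Klb, the co-receptor, had its lowest liver mean in Veh NPD mice (7.25 CPM) and its highest in Cort HPD mice (15.7 CPM). The Veh NPD livers had 2.06, 7.01, 10.6 and 9.38 CPM, and the Veh HPD livers 11.9, 9.51 and 16.7 CPM. Cort NPD livers had 12.01, 12.1, 16.5 and 13.5 CPM and Cort HPD livers 12.97, 16.7, 16.5 and 16.6 CPM. Every cort-treated liver was thus above every Veh NPD liver. The change with cort on the NPD was 0.90 ± 0.32 (95% interval 0.23 to 1.58, adjusted p = 0.0742), short of the threshold, and it passed in DESeq2 (adjusted p = 0.0322) and limma voom (0.0310). Without Veh NPD replicate 1, the library at 2.06 CPM, it was 0.57 (adjusted p = 0.0985). On the HPD it was 0.30 ± 0.33 (adjusted p = 0.618), and the interaction was -0.60 ± 0.46 (adjusted p = 0.623).

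Fgfr4, the hepatocyte receptor, had a positive change with cort on the NPD and a negative one on the HPD, as Fgf21 did, and neither passed the test. Its levels were 5.06, 7.96, 8.31 and 5.58 CPM in Veh NPD livers and 10.4, 7.78 and 7.84 CPM in Veh HPD livers. They were 12.01, 10.7, 8.25 and 8.51 CPM in Cort NPD livers and 4.92, 6.16, 7.57 and 5.87 CPM in Cort HPD livers. The Cort HPD values all lay below the Cort NPD values and below the Veh HPD values. The log2 change with cort was 0.55 ± 0.21 on the NPD (adjusted p = 0.0875) and -0.50 ± 0.22 on the HPD (adjusted p = 0.170). The difference between these 2 changes was -1.06 ± 0.31, with an interval of -1.69 to -0.42, and did not pass after adjustment (unadjusted p = 0.00229, adjusted p = 0.181). The HPD against the NPD in cort-treated mice gave -0.68 ± 0.21 (adjusted p = 0.0545).

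Fgfr2 and Fgfr1 gave no call in liver. Fgfr2 ran from 10.48 to 21.3 CPM, with changes of -0.02 ± 0.21 with cort on the NPD (adjusted p = 0.972) and -0.58 ± 0.22 on the HPD (adjusted p = 0.102). The 3 Veh HPD livers, at 19.0 to 19.9 CPM, were all above the 4 Cort HPD livers, at 10.48 to 15.1 CPM. Fgfr1 was low in liver, with 8 to 54 counts per library (0.523 to 3.01 CPM), and its intervals spanned over 1 log2 unit in every comparison. For cort against veh it gave -0.74 on the NPD (-1.73 to 0.25) and -0.72 on the HPD (-1.75 to 0.31).

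Gcgr, the glucagon receptor, was the steadiest member in liver and took its lowest values where cort and the HPD were combined. It stood at 60.9, 62.2, 55.1 and 50.7 CPM in Veh NPD livers and 40.5, 46.7 and 49.5 CPM in Veh HPD livers. Cort NPD livers had 55.6, 47.0, 47.3 and 44.8 CPM, and Cort HPD livers 40.3, 38.7, 33.97 and 34.5 CPM. Veh HPD values lay below all Veh NPD values, and Cort HPD values lay below all of the other 11 livers in the fits. The closest values were 40.3 CPM in Cort HPD and 40.5 CPM in Veh HPD. The HPD against the NPD gave -0.33 ± 0.14 in veh-treated mice (-0.63 to -0.03, adjusted p = 0.464) and -0.40 ± 0.13 in cort-treated mice (-0.68 to -0.13, adjusted p = 0.0750). Cort against veh gave -0.23 ± 0.13 on the NPD (adjusted p = 0.271) and -0.30 ± 0.14 on the HPD (adjusted p = 0.190), and the interaction was -0.07 (-0.47 to 0.33). Under library totals both Cort HPD comparisons passed, at -0.55 (adjusted p = 0.0246) for cort and -0.57 (0.0208) for diet. That scaling lowered the median of all genes by 0.239 and 0.169 in them.

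Ppara, the nuclear receptor, varied widely between libraries. Veh NPD livers had 45.5, 61.4, 104.6 and 42.4 CPM, and Veh HPD livers 60.8, 52.1 and 66.1 CPM. Cort NPD livers had 50.4, 57.8, 38.0 and 42.7 CPM, and Cort HPD livers 8.73, 38.2, 44.3 and 37.3 CPM. The change with cort was -0.43 ± 0.40 on the NPD (adjusted p = 0.554; -0.086 without Veh NPD replicate 3, the library at 104.6 CPM) and -0.89 ± 0.43 on the HPD (-1.83 to 0.05, adjusted p = 0.231). Every Cort HPD value lay below every Veh HPD value. Without Cort HPD replicate 1, the library at 8.73 CPM, the change on the HPD was -0.58 (adjusted p = 0.2).

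PPARα targets, most of them enzymes of fatty acid oxidation, moved in both directions. Of 34 tested in liver, 3 rose and 4 fell with cort on the NPD, and 2 rose and 6 fell on the HPD (20.6% and 23.5% of the list, beside 12.6% and 9.89% of all genes). Cd36, a fatty acid transporter, rose with cort by 2.09 ± 0.27 in NPD mice and 2.05 ± 0.30 in HPD mice. Fabp1, which carries fatty acids in hepatocytes, fell by 1.81 ± 0.24 and 1.78 ± 0.25, and the peroxisomal thiolase Acaa1b by 2.06 ± 0.26 and 1.61 ± 0.27. In cort-treated mice 0 targets rose and 8 fell on the HPD relative to the NPD (23.5%, beside 5.88% of all genes), with a median of -0.47 over the list and -0.009 over all genes. The lipase inhibitor Angptl4 was 103.8 ± 18.3 CPM (SD, n = 4) in Cort NPD livers and 40.8 ± 14.1 in Cort HPD livers, a change of -1.35 ± 0.24 (adjusted p = 0.00221). The monoacylglycerol lipase Mgll changed by -1.30 ± 0.21 (adjusted p = 0.00083). In veh-treated mice edgeR called 0 of the 34 for diet, beside 0.169% of all genes. There 10 were at an unadjusted p under 0.05, DESeq2 called 2 and limma voom 0, and the list's median was -0.20.

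Genes of glucagon receptor signalling moved in both directions. Of 37 tested, 3 rose and 3 fell with cort on the NPD (16.2%, beside 12.6% of all genes) and 3 rose and 6 fell on the HPD (24.3%, beside 9.89%). The inositol trisphosphate receptor Itpr1 rose by 0.92 ± 0.18 on the NPD (adjusted p = 0.00112), and the CREB coactivator Crtc2 fell by 1.89 ± 0.41 (adjusted p = 0.00507). On the HPD the phosphodiesterase Pde7a rose by 1.08 ± 0.26 (adjusted p = 0.0098), and the adenylyl cyclase Adcy4 fell by 1.59 ± 0.41 (adjusted p = 0.0151). In cort-treated mice on the HPD against the NPD, 2 rose and 1 fell (8.11%, beside 5.88%), the last being the β-arrestin Arrb1 at -1.02 ± 0.20 (adjusted p = 0.00316). The 2 that rose were Crtc2 (1.57 ± 0.41, adjusted p = 0.0317) and Pde4b (0.98 ± 0.28, adjusted p = 0.0429). For diet in veh-treated mice edgeR, DESeq2 and limma voom each called 0, with 2 at an unadjusted p under 0.05. In edgeR 0.169% of all genes were called there.

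Of 18 hepatic genes that glucagon is known to induce, 2 rose and 2 fell with cort on the NPD (22.2%, beside 12.6% of all genes) and 1 rose and 1 fell on the HPD (11.1%, near the 9.89% of all genes). Pcx, pyruvate carboxylase, which feeds gluconeogenesis, was 70.9 ± 10.0 CPM in Veh NPD and 169.1 ± 18.3 CPM in Cort NPD livers (SD, n = 4), a rise of 1.25 ± 0.17 (adjusted p = 2.31e-05). It was 75.4 ± 17.5 CPM in Cort HPD livers, lower than in Cort NPD by a log2 change of -1.16 ± 0.17 (adjusted p = 0.000285). In that comparison of the diets, Pcx was the 1 gene of the list that fell, and 3 rose (22.2%, beside 5.88% of all genes). Tat (1.45 ± 0.38, adjusted p = 0.0418) and Slc38a4 (0.57 ± 0.15, adjusted p = 0.0294) were among those that rose. The list's median was 0.21, with 13 of 18 values above 0. G6pc, glucose-6-phosphatase, rose by 1.17 ± 0.26 with cort on the HPD (adjusted p = 0.00594). In veh-treated mice 1 gene was called for diet, higher on the HPD (5.56%, beside 0.169% of all genes). It was the glutaminase Gls2 (0.75 ± 0.15, adjusted p = 0.0474), a call lost in 13 of 15 fits that left out 1 library. The list's median there was 0.40, with 16 of 18 values above 0 and all genes at 0.004.

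Of 30 genes downstream of the FGF receptors tested in liver, 0 rose and 1 fell with cort on the NPD (3.33%, beside 12.6% of all genes) and 0 rose and 2 fell on the HPD (6.67%, beside 9.89%). Spred2, an inhibitor of the RAS and ERK cascade, fell by 1.19 ± 0.29 in NPD mice (adjusted p = 0.00768) and by 1.18 ± 0.30 in HPD mice (adjusted p = 0.0151). Spry4, a feedback inhibitor that FGF signalling induces, fell by 2.15 ± 0.62 on the HPD (adjusted p = 0.0318), from 13 to 38 counts per library in Veh HPD to 1 to 13 in Cort HPD, and the call was lost in 5 of 15 fits that left out 1 library. Among the other ligands and receptors, Fgf1 rose with cort in NPD mice (0.76 ± 0.19, adjusted p = 0.00968) and in HPD mice (0.78 ± 0.21, adjusted p = 0.0189), and Fgf15 had 0 counts in every library.

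**Figure D3:**
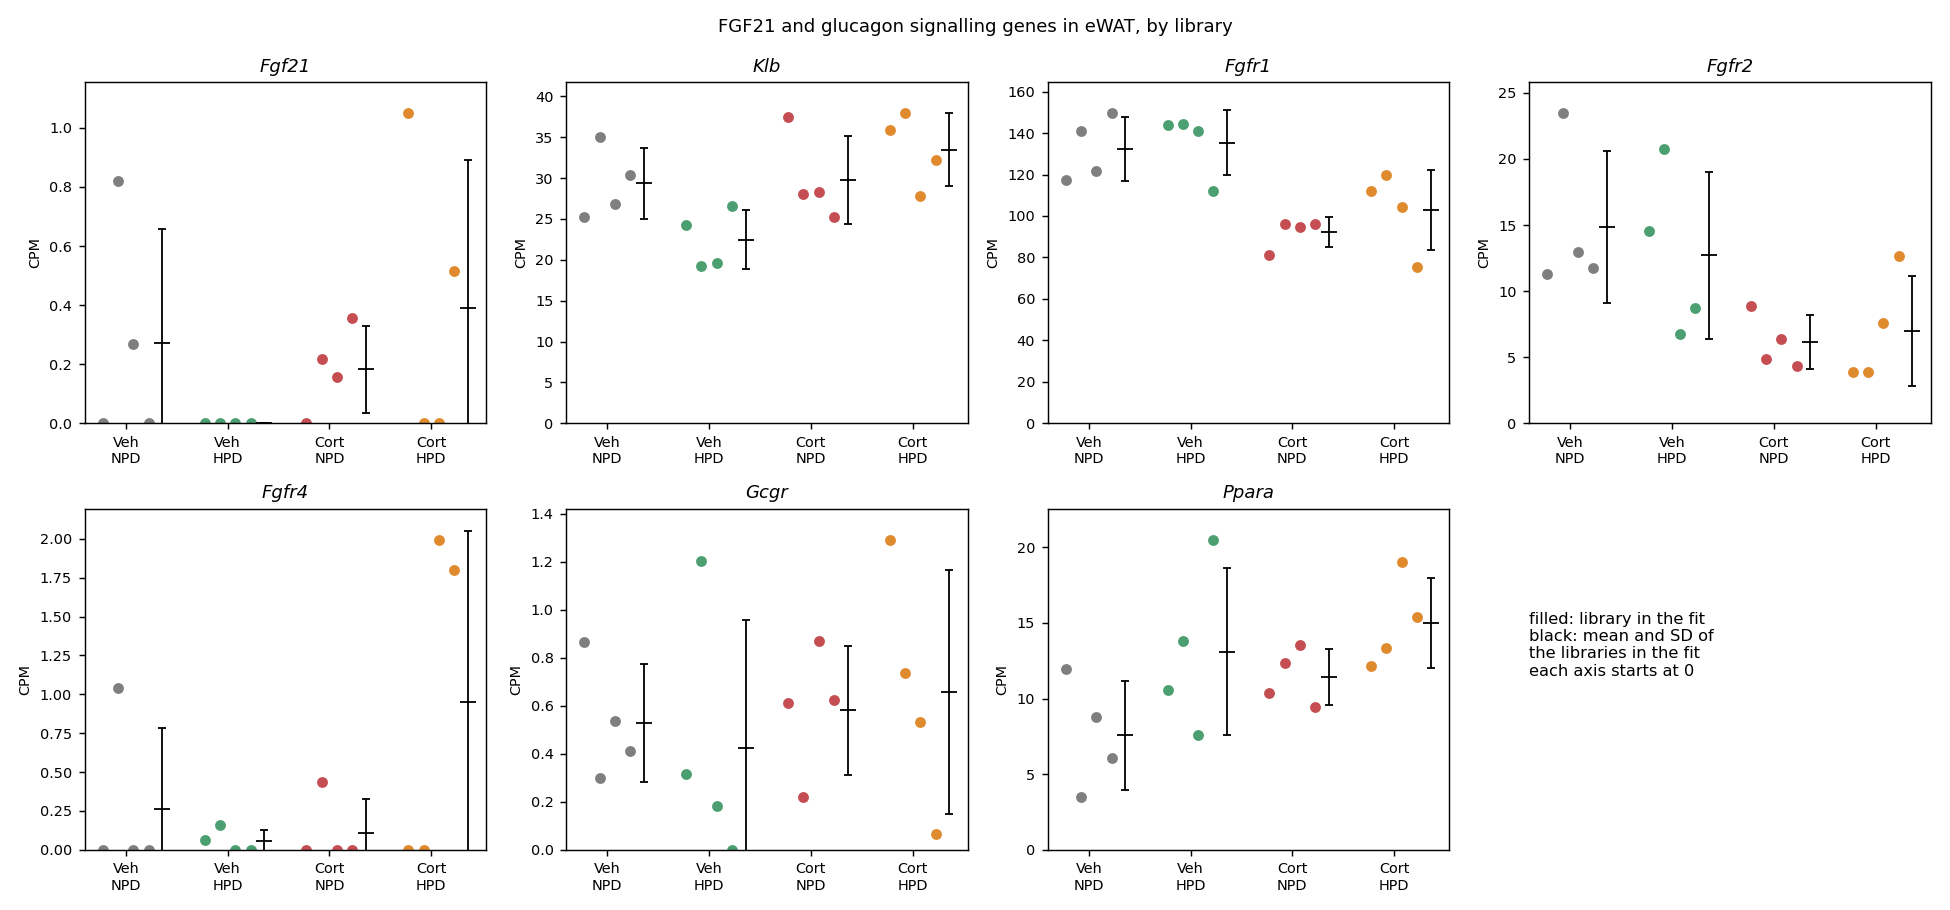
CPM of the 7 genes in each eWAT library, by group, with an axis from 0 in each panel, and the mean and SD of the 4 libraries. Fgfr1 sits at 112 to 149 CPM in the veh-treated groups and at 75.3 to 120 CPM in the cort-treated groups, while Fgf21, Fgfr4 and Gcgr stay at or below 1.99 CPM.

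In eWAT Fgfr1 and Fgfr2 fell with cort on the NPD, and the co-receptor Klb rose with cort on the HPD, while no member passed the test of the interaction between diet and cort. For cort against veh on the NPD, 2 of the 5 members tested were called, both lower, beside 7.98% of all genes. For cort against veh on the HPD 1 of 5 was called, higher, beside 6.09%. For HPD against NPD it was 0 of 5 in veh-treated mice, beside 0.0593%, and 0 of 5 in cort-treated mice, beside 0.487%, and for the interaction 0 of 5, beside 0.0132%. At an unadjusted p under 0.05 these last 3 comparisons had 2, 0 and 1 members, and DESeq2 and limma voom called 0 in each. Fgf21 and Fgfr4 did not pass the filter on low counts and were not tested.

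Fgfr1, the main FGF21 receptor of fat, was the most abundant FGF receptor there. It stood at 117, 141, 122 and 149 CPM in Veh NPD and at 144, 144, 141 and 112 CPM in Veh HPD. Cort NPD libraries had 81.4, 96.2, 94.9 and 96.2 CPM, and Cort HPD libraries 112, 120, 104 and 75.3 CPM. On the NPD no cort-treated library reached the lowest veh-treated one. The change was -0.52 ± 0.14 (adjusted p = 0.0145), and it missed the threshold without Veh NPD replicate 4 (adjusted p = 0.0574) or Cort NPD replicate 1 (0.0663). On the HPD it was -0.40 ± 0.14 (-0.68 to -0.12, adjusted p = 0.0862), passing without Veh HPD replicate 4 (-0.48, adjusted p = 0.0238). Without Cort HPD replicate 4, the library with epididymis markers, it was -0.27 (adjusted p = 0.272). The interaction was 0.13 (-0.27 to 0.52), so a difference between the diets was not shown.

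Fgfr2, which binds several paracrine FGFs, was lower with cort but variable. Veh NPD libraries had 11.3, 23.5, 12.97 and 11.8 CPM, and Cort NPD libraries 8.90, 4.87, 6.39 and 4.36 CPM, without overlap. The change on the NPD was -1.27 ± 0.39 (adjusted p = 0.0499), at the edge of the threshold, and the call was lost in 10 of 16 fits that left out 1 library, with values from -1.51 to -0.97. Adjusted p rose to 0.168 without Veh NPD replicate 2, the library at 23.5 CPM. On the HPD Fgfr2 stood at 14.5, 20.7, 6.79 and 8.76 CPM with veh and at 3.87, 3.90, 7.58 and 12.7 CPM with cort. That change was -0.85 ± 0.39 (adjusted p = 0.238), with -1.30 (adjusted p = 0.0427) without Cort HPD replicate 4 and -0.51 (adjusted p = 0.569) without Veh HPD replicate 2.

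Markers of stromal cells were lower with cort on the NPD, as these receptors were, and overlapped between cort and veh on the HPD. The summed level of 6 adipose progenitor and stromal genes (Pdgfra, Dpp4, Pi16, Col1a1, Dpt and Cd34) was 910 to 1316 CPM in Veh NPD and 540 to 677 CPM in Cort NPD, and 475 to 1039 CPM in Veh HPD against 521 to 726 CPM in Cort HPD. Their part in the result was not tested. Veh HPD replicate 4, the lowest of its group for Fgfr1, was also its lowest for the stromal sum. For Fgfr2 the lowest of that group was replicate 3, at 6.79 CPM. The white adipocyte sum was 15682 to 26790 CPM in Veh NPD and 14643 to 17471 CPM in Cort NPD, which overlapped. In whole tissue, fewer cells of a type and less RNA per cell cannot be told apart. The genes most like Fgfr1 over the 16 eWAT libraries were Thbs3 (r = 0.92), C1s1 (0.91) and Hoxc8 (0.90), a description over libraries that share their treatment groups.

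Klb was abundant in eWAT, and its one called change was a rise with cort on the HPD. It stood at 25.2, 35.1, 26.8 and 30.3 CPM in Veh NPD and at 24.3, 19.3, 19.6 and 26.6 CPM in Veh HPD. Cort NPD libraries had 37.5, 28.1, 28.3 and 25.2 CPM, and Cort HPD libraries 35.9, 37.9, 27.9 and 32.2 CPM. All Cort HPD values were above all Veh HPD values, and Veh HPD was the group with the lowest mean. The change with cort on the HPD was 0.58 ± 0.17 (0.23 to 0.92, adjusted p = 0.0373). It was lost in 6 of 16 fits that left out 1 library, each with a Veh HPD or Cort HPD library removed, with values from 0.51 to 0.67 and an adjusted p of 0.132 at most. Without Cort HPD replicate 4, the library with epididymis markers, the change was 0.59 (adjusted p = 0.058). On the NPD the change was 0.02 ± 0.17 (-0.32 to 0.36). The difference between the diets, 0.55 ± 0.24, did not pass (adjusted p = 0.912), nor did the HPD against the NPD in veh-treated mice (-0.39 ± 0.17, adjusted p = 0.534). Marker sums moved in the same comparison as the Klb call. The white adipocyte sum was 23396 to 37402 CPM in Veh HPD and 14198 to 16306 CPM in Cort HPD, and the red blood cell sum (6 genes) 5252 to 9274 CPM and 12687 to 25861 CPM, both without overlap. Their part in the Klb result was not tested.

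Ppara and Gcgr gave no call in eWAT, although Ppara was at an unadjusted p under 0.05 for diet in veh-treated mice. Ppara stood at 11.9, 3.50, 8.81 and 6.06 CPM in Veh NPD and at 10.5, 13.8, 7.58 and 20.5 CPM in Veh HPD. Cort NPD libraries had 10.4, 12.4, 13.6 and 9.44 CPM, and Cort HPD libraries 12.2, 13.4, 19.0 and 15.4 CPM. Each cort-treated group overlapped the veh-treated group on its diet, with a change of 0.59 ± 0.31 with cort on the NPD (adjusted p = 0.292) and 0.79 ± 0.31 with the HPD in veh-treated mice (adjusted p = 0.459). Gcgr had 0 to 23 counts per library (1.29 CPM at most), and its 95% interval for cort on the NPD, -2.41 to 2.66, was too wide to show a change. Fgf21 had 0 counts in 9 of the 16 libraries and at most 13, and Fgfr4 had 0 in 10 and at most 30.

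The make-up of the FGF receptor pool differed between the tissues. Since QuantSeq reads transcript ends, counts of different genes do not grow with transcript length, though the capture of each 3′ end may differ. Fgfr1 made up 87.6% ± 4.1 (SD, n = 4) of the Fgfr1 to Fgfr4 counts in eWAT of Veh NPD mice and 92.2% ± 2.3 in Cort NPD. In liver of Veh NPD mice Fgfr1 made up 5.04% ± 1.86, Fgfr2 43.6% ± 4.6, Fgfr3 33.6% ± 5.2 and Fgfr4 17.8% ± 2.0. Fgfr3 stood at 43.7% ± 4.1 in Cort HPD livers, the largest of the 4 shares there, and Fgfr2 stood at 35.8% ± 3.8. Cort NPD livers had the same order, with Fgfr3 at 39.8% ± 4.7 and Fgfr2 at 35.5% ± 8.3. In eWAT Cort HPD replicate 4 Fgfr1 was 75.2% and Fgfr3 10.3%, the lowest and the highest of that group.

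**Figure D4:**
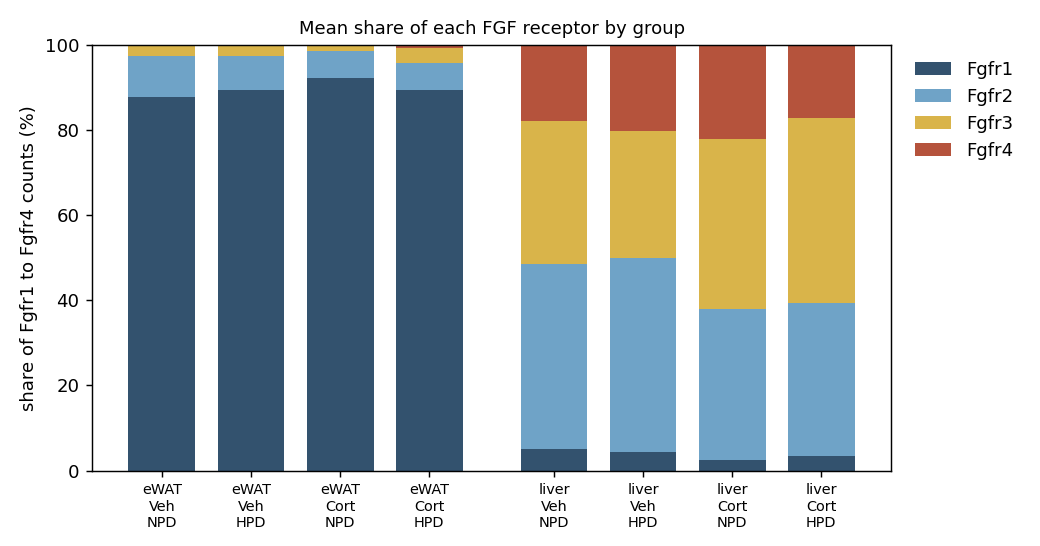
Stacked bars of the mean share of each of Fgfr1 to Fgfr4 in their summed counts, in percent, for the 4 eWAT groups (left) and the 4 liver groups (right). Fgfr1 fills 87.6% to 92.2% of the eWAT bars and 2.40% to 5.04% of the liver bars.

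Among genes downstream of the FGF receptors in eWAT, 3 of 32 rose and 0 fell with cort on the NPD, and 2 rose and 1 fell on the HPD (9.38% on each diet, beside 7.98% and 6.09% of all genes). Spry4 rose on both diets. It was 5.87 ± 2.34 CPM (SD, n = 4) in Veh NPD and 16.97 ± 6.88 in Cort NPD, a change of 1.53 ± 0.32 (adjusted p = 0.00222), and 5.74 ± 2.37 in Veh HPD and 15.8 ± 1.96 in Cort HPD (1.45 ± 0.31, adjusted p = 0.0044). The GTPase Hras rose by 0.69 ± 0.12 and 0.64 ± 0.12 (adjusted p = 0.000352 and 0.00111). Il17rd, a membrane inhibitor of FGF signalling, fell by 1.05 ± 0.31 on the HPD (adjusted p = 0.0382), with the call lost in 7 of 16 fits that left out 1 library. Fgf1, a ligand that adipocytes make, rose by 0.61 ± 0.17 on the NPD (adjusted p = 0.02).

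The remaining lists were called in eWAT as follows. Of 30 PPARα targets, 7 rose and 1 fell with cort on the NPD (26.7%, beside 7.98% of all genes) and 3 rose and 0 fell on the HPD (10%, beside 6.09%). The mitochondrial thiolase Acaa2 rose by 0.71 ± 0.13 and 1.04 ± 0.13 (adjusted p = 0.000712 and 6.8e-06). In cort-treated mice 0 rose and 2 fell on the HPD against the NPD (6.67%, beside 0.487% of all genes). They were the lipid droplet protein Plin2 (-0.72 ± 0.12, adjusted p = 0.00349) and the carnitine carrier Slc25a20 (-0.65 ± 0.14, adjusted p = 0.0208). Of 43 glucagon receptor signalling genes 2 rose and 1 fell on the NPD (6.98%) and 2 rose and 2 fell on the HPD (9.3%), near the shares of all genes. The protein kinase A subunit Prkar2b rose by 0.90 ± 0.13 and 0.72 ± 0.13, and Ramp2, a receptor-modifying protein, fell by 0.66 ± 0.16 and 0.69 ± 0.16. Of 11 glucagon-induced genes, 1 rose with cort on each diet (9.09%, beside 7.98% and 6.09% of all genes). They were Pcx on the NPD (0.54 ± 0.15, adjusted p = 0.0233) and Nr4a1 on the HPD (1.95 ± 0.51, adjusted p = 0.0206). In cort-treated mice Pcx alone was called for diet, lower on the HPD (-0.91 ± 0.15, adjusted p = 0.00296, 9.09% beside 0.487% of all genes). Of 21 regulators of Fgf21, 1 rose and 0 fell on the NPD (4.76%, beside 7.98% of all genes). On the HPD 1 rose and 1 fell (9.52%, beside 6.09%). Mlxipl, which encodes ChREBP, rose by 1.09 ± 0.18 and 0.91 ± 0.18, and Thrb fell by 0.77 ± 0.19 on the HPD (adjusted p = 0.0106). Fgf21 itself stayed near 0.

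Gcg, the glucagon gene, was counted in eWAT, at 6 to 249 counts per library, and at 0 to 3 in liver. Other islet genes, looked up after this was seen, went with it. Ins1 had 56 to 1168 counts and Ins2 121 to 2214 in the 16 eWAT libraries, and their Spearman's rho with Gcg in CPM was 0.95 for each. The exocrine pancreas marker sum in eWAT was 5.33 to 22.7 CPM. The part of islet RNA in other eWAT values was not tested.

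The responses of the tissues to cort were compared in a joint fit of 31 libraries. On the NPD 0 of 7 members differed, beside 3.85% of all genes, with 2 (Klb and Fgfr2) at an unadjusted p under 0.05 and 0 in DESeq2 and limma voom. The liver response minus the eWAT response was 0.92 ± 0.36 for Klb (adjusted p = 0.164) and 1.30 ± 0.48 for Fgfr2 (adjusted p = 0.148). On the HPD edgeR called 1 of 7, Fgf21 (adjusted p = 0.0482), beside 3.12%. Fgf21 entered the fit only through its liver counts, so the call is not read as a difference between the tissues. No size is given for it, since all 4 eWAT Veh HPD libraries had 0 counts of Fgf21, those of Cort HPD had 13, 0, 0 and 8, and the call was lost in 22 of 31 fits that left out 1 library. Spry4 differed by -3.65 ± 0.69 on the HPD (adjusted p = 0.00145), falling in liver and rising in eWAT.

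**Figure D5:**
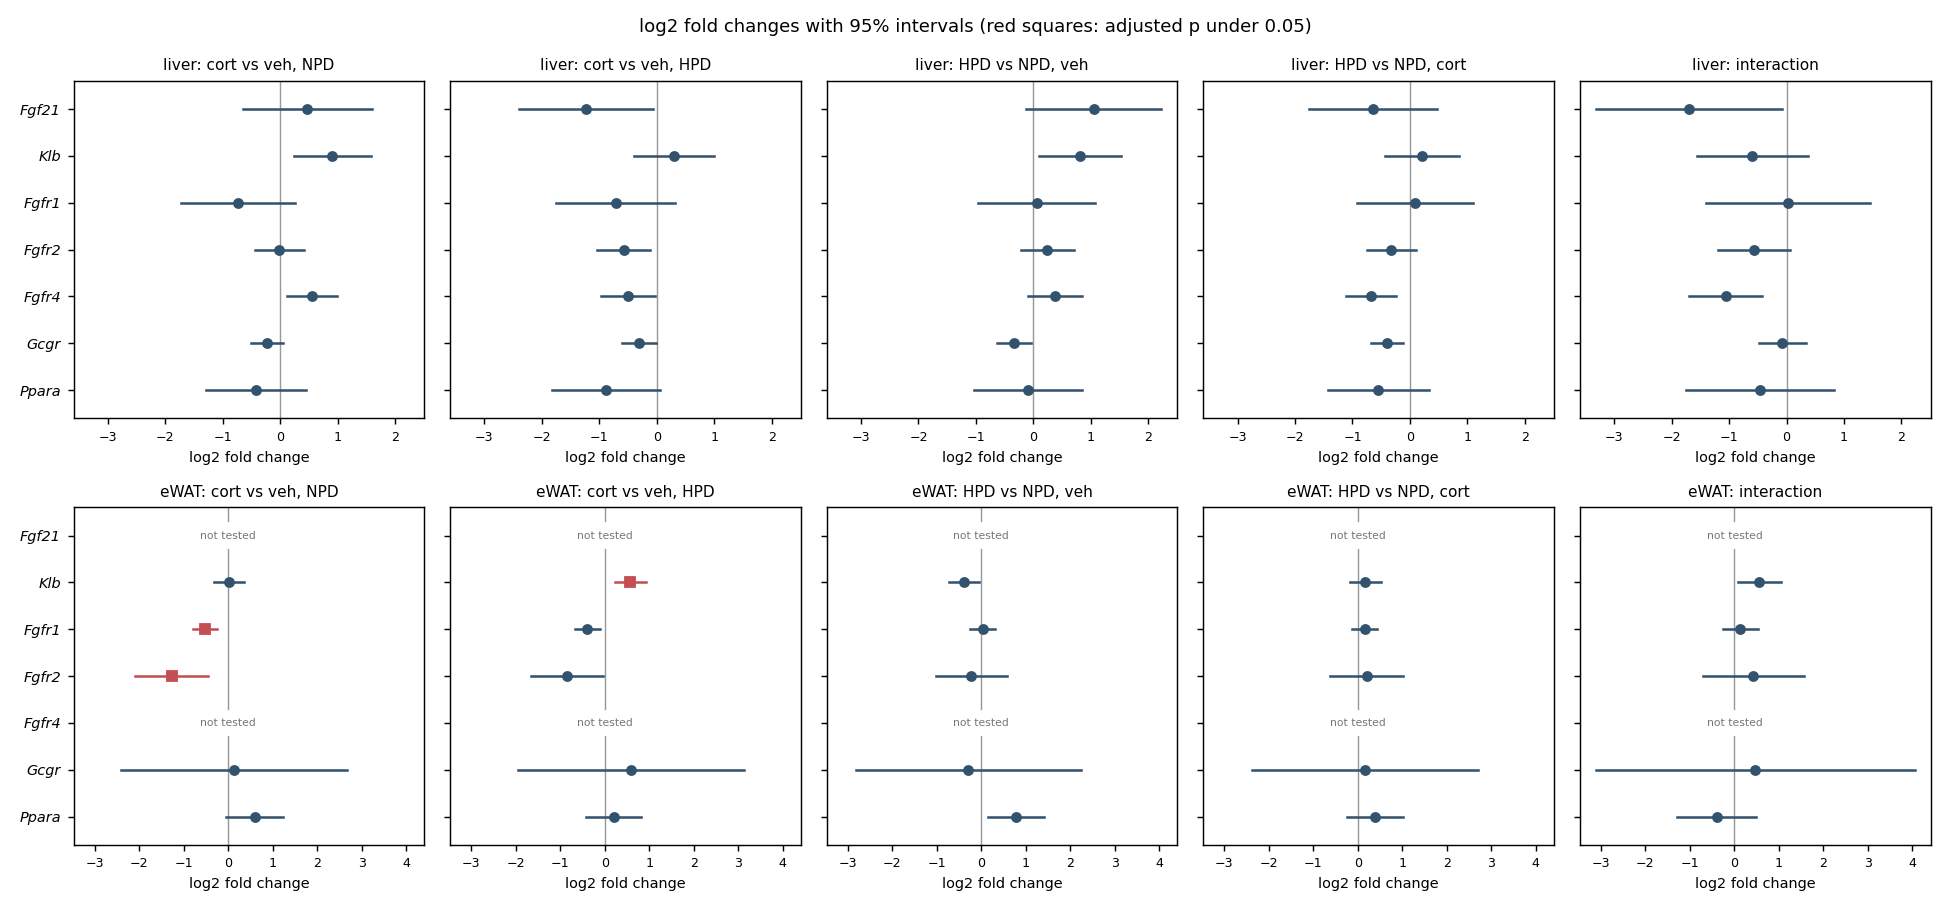
Log2 fold changes of the 7 genes with 95% intervals, liver above and eWAT below, in 5 comparisons each. Red squares mark an adjusted p under 0.05: Fgfr1 (-0.52) and Fgfr2 (-1.27) with cort on the NPD and Klb (0.58) with cort on the HPD, all in eWAT.

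Within tissues the members did not move as a block. In liver the 7 changes with cort on the NPD had a median of -0.02 with 3 above 0, and on the HPD a median of -0.58 with 1, Klb, above 0. Over libraries, the genes most like each member differed. For Gcgr in liver they were the ribosomal scaffold Rack1 (r = 0.91), Serpina11 (0.90) and Mup4 (0.89). For Ppara they were Plpp3 (0.95), Srrm2 (0.94) and Sart1 (0.93), for Klb Thap12 and Minpp1 (both 0.88) and Lin54 (0.86), and for Fgfr4 Bgn (0.87), Col18a1 (0.86) and Clu (0.85). Among members, the strongest relation in liver beyond the group means was between Fgfr4 and Ppara (r = 0.68 over 15 libraries after centring on group means). These are descriptions over libraries that share depth and treatment.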

How the data were processed

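Counts were as deposited by the authors, whole-number counts per Ensembl gene and library with no normalization. Per the labels, reads came from QuantSeq 3′ libraries and the submitters' processing notes name GRCm38 (mm10), R 4.0.3 and limma; the aligner, counter and annotation are not given in the sources used here. Symbols came from GENCODE (47224 of 47643 IDs matched) and promoters from RefSeq. All columns were used. In R 4.3.3, edgeR 4.0.16 kept genes by filterByExpr (minimum count 10, total 15) and fitted 1 mean per group with TMM scaling and a robust quasi-likelihood test, per tissue and jointly; SE is the change over the root of F. The library left out in liver follows the rule by which the genes were chosen. Log2 CPM used a prior count of 2. DESeq2 1.42.0, limma voom (3.58.1), RLE, library totals, no filter, a replicate block and each library left out were alternatives. Scripts were tested on simulated data. Members and lists were chosen with earlier results of these data known. Named genes were the members, up to 2 called per list and direction with the smallest p, and the 3 genes most correlated with each member; Trib3, Ddit3, Atf4 and islet genes were shown by library after their values were seen. The common coefficient of variation was 0.228 in liver and 0.372 in eWAT. None of 48 replicate pairs held identical counts.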

Additional observations from a re-analysis of the deposited data

Results flagged for a closer look

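In 41 groups of 4 libraries, 5 had a highest or lowest library whose gap to its neighbour exceeded Dixon's limit, where chance gives about 2.05. They were Fgfr1 in liver Cort NPD replicate 3 (1.893 CPM, next 0.9491), Klb in liver Cort HPD replicate 1 (12.97, next 16.53), Fgfr2 in eWAT Veh NPD replicate 2 (23.45, next 12.97), Fgfr1 in eWAT Veh HPD replicate 4 (111.8, next 141) and Fgfr1 in eWAT Cort NPD replicate 1 (81.36, next 94.88). Fgf21 was called for a difference between liver and eWAT in the response to cort on the HPD (adjusted p = 0.0482 in edgeR's quasi-likelihood test). It entered that fit only through its liver counts. The call rests on eWAT libraries with 0 to 13 counts and is not read as a difference. In liver Veh HPD replicate 4, the library outside the comparisons, Fgf21 (11.2 CPM) and Fgfr1 (2.81 CPM) were above all Veh NPD livers, whose highest values were 5.63 and 2.76 CPM.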

How the results depend on the processing

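Of the member changes under alternatives other than leaving out 1 library, 553 kept direction and side of the threshold, 9 gained and 9 lost a call, and 11 changed sign. Member counts became 1 for cort on the NPD in liver (DESeq2, limma voom, replicate block), 2 for cort on the HPD in liver (library totals), 2 for diet in cort-treated mice in liver (library totals, DESeq2), 1 for cort on the NPD in eWAT (limma voom, no filter, replicate block), 0 for cort on the HPD in eWAT (library totals, only the groups compared) and 0 for the tissue difference on the HPD (RLE, limma voom, no filter). The cause was not tested. Changes of sign, all without a call, were Fgfr1 in liver for diet with veh (-0.11, replicate block), diet with cort (-0.13 library totals, -0.092 limma voom) and interaction (-0.25 library totals, -0.11 limma voom, -0.11 all liver libraries), Ppara in liver for diet with veh (0.0039, limma voom), Gcgr in liver for the interaction (0.11, all liver libraries), Klb in eWAT for cort on the NPD (-0.067, library totals) and Gcgr in eWAT for diet with cort (-0.30 limma voom, -0.34 replicate block). Fgf1 in liver against eWAT went from 0.92 to -0.10 under library totals.

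Leaving out each library in turn gave 0 to 1 members called for cort on the NPD in liver, 0 to 2 for cort on the NPD in eWAT, 0 to 2 for cort on the HPD in eWAT and 0 to 2 for the tissue difference on the HPD. Ranges that crossed 0 were, in liver, Fgfr2 for cort on the NPD (-0.19 to 0.13), Fgf21 (-0.081 to 1.42), Fgfr1 (-0.47 to 0.38) and Ppara (-0.24 to 0.26) for diet with veh, and Fgfr1 for diet with cort (-0.26 to 0.48) and the interaction (-0.32 to 0.56). In eWAT they were Klb (-0.11 to 0.12) and Gcgr (-0.13 to 0.47) for cort on the NPD, Fgfr1 (-0.023 to 0.11), Fgfr2 (-0.57 to 0.082) and Gcgr (-1.62 to 0.10) for diet with veh, Fgfr2 (-0.25 to 0.44) and Gcgr (-0.39 to 0.55) for diet with cort, and Fgfr2 (-0.028 to 0.77) and Gcgr (-0.089 to 1.79) for the interaction. Between tissues they were Fgf21 (-0.44 to 1.48), Fgfr1 (-0.56 to 0.051) and Fgfr4 (-2.85 to 4.96) on the NPD and Fgfr1 (-0.75 to 0.16) and Fgfr2 (-0.067 to 0.72) on the HPD.

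Within a tissue, same-numbered libraries did not deviate together (median r of deviations -0.02 over 21 liver pairs and -0.01 over 24 eWAT pairs). The block of replicate numbers thus pairs nothing there. It took liver Klb with cort on the NPD past the threshold (0.98, adjusted p = 0.0216) and Fgfr2 in eWAT out of it (-1.22, adjusted p = 0.0982). Between liver and eWAT the median r was 0.022 over 15 same-numbered pairs (-0.004 to 0.113). Over 45 other pairs it was -0.015 (-0.089 to 0.061). Whether liver and eWAT of a number came from the same mouse is not given, and the joint fit treated them as separate. Fgf21 had 29 to 182 counts per liver library and Fgfr1 8 to 54. Their SEs in the liver comparisons were 0.52 to 0.76 and 0.48 to 0.69, so small changes of these genes cannot be seen.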
